A study of Capra hircus with 29 samples.

Results

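The adaptor protein BTG4 and 9 subunits of the CCR4-NOT deadenylase complex, CNOT1, CNOT2, CNOT3, CNOT6, CNOT6L, CNOT7, CNOT8, CNOT10 and CNOT11, were followed at the mRNA level in goat oocytes. They were taken by gene symbol from the deposited expression table, where each of the 10 symbols stood for 1 gene among 21343 genes in all. CCR4-NOT shortens the poly(A) tails of mRNAs in the cytoplasm, which for most mRNAs begins their decay. A fully grown oocyte is nearly silent in transcription, and during meiotic maturation a large portion of its stored maternal mRNA loses its tail and is cleared. BTG4, which is expressed mainly in oocytes, binds the catalytic subunits CNOT7 and CNOT8 and brings the complex to maternal mRNAs, and embryos from female mice that lack it arrest soon after fertilization.

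RNA sequencing gave the level of each gene in 29 samples of oocytes from Ji'ning grey goats, as FPKM, fragments per kilobase of transcript scaled to the mapped fragments of the sample. Samples labelled HLO, HMO and HSO came from large, medium and small follicles of goats of a high-fertility population, and LLO, LMO and LSO came from the same follicle classes in a low-fertility population. The labels place goats with litters above 3 kids in the high population and goats with litters under 2 kids in the low population, whereas the study's methods include these limits. There were 4 HSO samples and 5 in each of the other groups. No treatment is given, and genotype and age are not given in the labels used here. Although the title of the deposited series speaks of single cells, each sample held, by the methods, a few oocytes. The methods say, for the high-fertility goats, that the oocytes of a follicle class were combined across animals before they were divided into samples. The goats behind each sample are not given, so the spread between replicates may be in part technical and is not a spread between animals. In such pools, fewer oocytes with a transcript and less transcript in each oocyte cannot be told apart. The libraries were made from mRNA captured by its poly(A) tail, and the table holds levels, not tail lengths.

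The number of sequenced fragments behind these values is not in the table and was not taken from other sources, so no counting interval is given. The FPKM of all genes summed to 222697 in LMO replicate 2, the lowest, and to 490048 in HMO replicate 1, the highest. Between 6646 genes (LLO replicate 2) and 8689 genes (LLO replicate 4) were above 0.5 FPKM in a sample. A gene entered the comparisons across all samples if it was above 0.5 FPKM in at least 4 of them, which 9692 genes were, all 10 members included. On these genes, in log2(FPKM + 1), the first principal component held 39% and the second 17.0% of the variance. LLO replicates 2 and 5 stood apart on the second component, at 92.7 and 100.5 against at most 20.3 in the other 27 samples, and the main comparisons and correlations that include them are also given without them.

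The oocyte label was checked against marker genes. ZP3 (mean 1406 FPKM), ZP4 (424 FPKM), GDF9 (312 FPKM), ZP2 (245 FPKM) and BMP15 (153 FPKM), which encode proteins of the zona pellucida or growth factors secreted by oocytes, were above 0.5 FPKM in all 29 samples. Of the other oocyte markers, DDX4, MOS and KIT passed 0.5 FPKM in 29 samples, FIGLA in 28, NOBOX in 8 and NLRP5 in 5. DAZL passed it in 21 under the identifier ENSCHIG00000017877 and was listed at 0 in all 29 under ENSCHIG00000016605. The 12 oocyte markers summed to between 430 FPKM (LLO replicate 2, where BMP15 was the most abundant) and 9081 FPKM (HSO replicate 5, where ZP3 was). Of the 14 granulosa and cumulus cell markers, 13 were in the table and summed to between 6.92 and 55.5 FPKM. STAR was the most abundant in every sample, with AMH listed at 0 in all 29 samples, LHCGR in 27 and FSHR in 17. Of the 13, 8 passed 0.5 FPKM in at least 1 sample. HAS2 did in 29 samples, as STAR did, GJA1 in 19, INHBA in 10 (up to 5.21 FPKM in LMO replicate 5), FST in 5 and TNFAIP6 in 4 (up to 18.2 FPKM in LSO replicate 5), and INHA and CYP11A1 in 1 each. Leukocyte markers summed to at most 5.72 FPKM, mostly LAPTM5, with CD74 and CD14 listed at 0 in every sample. Endothelial markers summed to at most 2.33 FPKM, with CDH5 listed at 0 throughout.

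BTG4 (ENSCHIG00000017012) was by far the most abundant member. Its level averaged 1171 ± 659 FPKM (SD, n = 29), higher than that of 99.7% of all 21343 genes. Of these genes 4171 were listed at 0 in all samples. BTG4 ranged from 173 FPKM in LMO replicate 2 to 2653 FPKM in LLO replicate 5. In oocytes of large follicles, BTG4 was at 2023, 499, 813, 285 and 1943 FPKM in HLO replicates 1 to 5 (mean 1112.5 ± 817 SD, n = 5), and at 1894, 1251, 660.0, 1314.5 and 2653 FPKM in LLO replicates 1 to 5 (mean 1555 ± 754 SD, n = 5). BTG4 in oocytes of medium follicles was at 2089.9, 635.5, 678, 981 and 1621 FPKM in HMO replicates 1 to 5 (mean 1201 ± 634 SD, n = 5), against 1234, 173, 528.5, 1215 and 1418 FPKM in LMO replicates 1 to 5 (mean 914 ± 535 SD, n = 5). In oocytes of small follicles, BTG4 was at 2032, 769, 943 and 1869 FPKM in HSO replicates 1, 3, 4 and 5 (mean 1403 ± 639 SD, n = 4), and at 409, 389, 519.6, 1657 and 1462 FPKM in LSO replicates 1 to 5 (mean 887 ± 619.6 SD, n = 5). Each group held samples with high and samples with low BTG4, and high-fertility and low-fertility values overlapped in all 3 follicle classes. The spread followed the replicate number in the sample titles more than the group. Median BTG4 was 1958 FPKM in the 6 samples numbered 1, 499 FPKM in the 5 numbered 2, 669 FPKM in the 6 numbered 3, 1098 FPKM in the 6 numbered 4 and 1745 FPKM in the 6 numbered 5. Samples could still be far from the median of their number, among them LSO replicate 1 at 409 FPKM, LMO replicate 2 at 173 FPKM, LLO replicate 2 at 1251 FPKM and HLO replicate 4 at 285 FPKM. Of the sum of squares of BTG4 in log2(FPKM + 1), 49.9% lay between replicate numbers and 15.5% between the 6 groups, where the medians over all 9692 genes were 33.8% and 16.8%. What a replicate number stands for is not given in the sources used here.

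**Figure D1:**
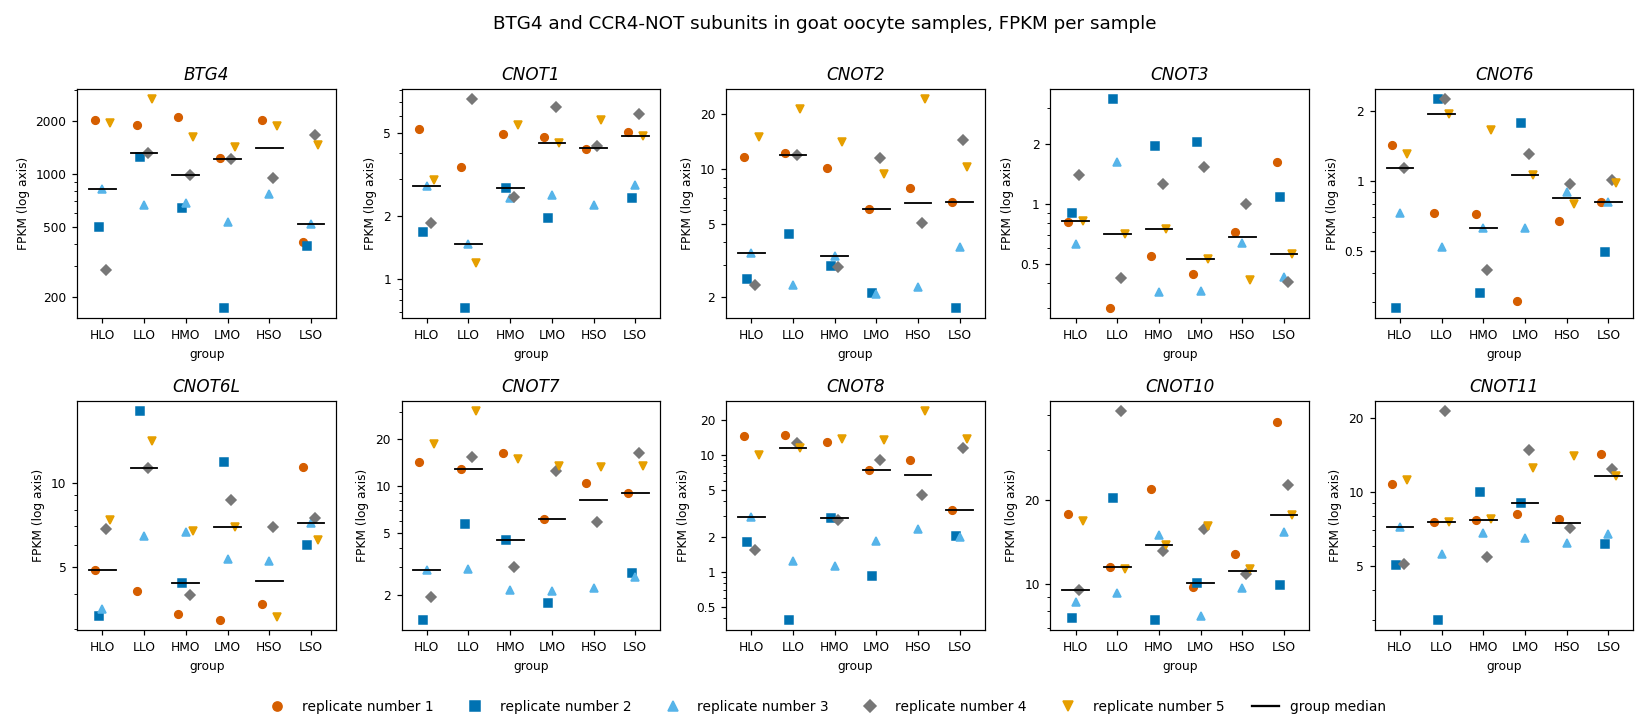
Level of BTG4 and of 9 CCR4-NOT subunits in 29 goat oocyte samples, in FPKM on log axes, by group, with each point 1 sample marked by its replicate number and each bar a group median. BTG4 spans 173 to 2653 FPKM, and in CNOT2, CNOT7 and CNOT8 the samples numbered 1 and 5 sit above those numbered 2 and 3.

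By median over the 29 samples, the order after BTG4 (1215 FPKM) was CNOT10 (12.8), CNOT11 (7.67), CNOT6L (6.43), CNOT7 (6.13), CNOT2 (6.02), CNOT8 (4.51), CNOT1 (2.98), CNOT6 (0.816) and CNOT3 (0.724), all in FPKM, a scale per transcript length. BTG4 was above CNOT10 in 29 of 29 samples, CNOT10 above CNOT11 in 27 and CNOT1 above CNOT6 in 27. Neighbours in the middle of the order were not separated beyond their spread. CNOT6L was above CNOT7 in 14 samples, CNOT7 above CNOT2 in 21 and CNOT2 above CNOT8 in 19. At the low end, CNOT6 was above CNOT3 in 16.

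CNOT1 (ENSCHIG00000010452), the scaffold on which the other subunits assemble, averaged 3.62 ± 1.75 FPKM (SD, n = 29) and ranged from 0.732 FPKM in LLO replicate 2 to 7.24 FPKM in LLO replicate 4. It was above 0.5 FPKM in all 29 samples. Group means ± SD were 2.90 ± 1.41 in HLO, 2.82 ± 2.68 in LLO, 3.61 ± 1.46 in HMO, 4.08 ± 1.88 in LMO, 4.13 ± 1.44 in HSO and 4.25 ± 1.56 in LSO, in FPKM. The groups overlapped, and within LLO alone CNOT1 covered the whole range seen in the data. Its level moved with the number of genes detected: over the 29 samples, Spearman's rho between CNOT1 and the count of genes above 0.5 FPKM was 0.90.

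CNOT2 (ENSCHIG00000021610) and CNOT3 (ENSCHIG00000015302) pair in the NOT module, which contacts RNA-binding proteins that recruit the complex. In oocytes of large follicles, CNOT2 was at 11.7, 2.50, 3.46, 2.31 and 14.99 FPKM in HLO replicates 1 to 5 (mean 6.99 ± 5.93 SD, n = 5), and at 12.3, 4.41, 2.32, 12.0 and 21.3 FPKM in LLO replicates 1 to 5 (mean 10.5 ± 7.53 SD, n = 5). CNOT2 in oocytes of medium follicles was at 10.2, 2.96, 3.35, 2.92 and 14.04 FPKM in HMO replicates 1 to 5 (mean 6.70 ± 5.14 SD, n = 5), against 6.02, 2.10, 2.07, 11.5 and 9.42 FPKM in LMO replicates 1 to 5 (mean 6.22 ± 4.25 SD, n = 5). In oocytes of small follicles, CNOT2 was at 7.91, 2.27, 5.10 and 24.3 FPKM in HSO replicates 1, 3, 4 and 5 (mean 9.89 ± 9.86 SD, n = 4), and at 6.61, 1.74, 3.76, 14.4 and 10.3 FPKM in LSO replicates 1 to 5 (mean 7.35 ± 5.08 SD, n = 5). Every group held both low and high samples of CNOT2, and high-fertility and low-fertility values overlapped in each follicle class. All 12 samples numbered 1 or 5 (lowest 6.02 FPKM) were above all 11 samples numbered 2 or 3 (highest 4.41 FPKM), and the samples numbered 4 fell on both sides. CNOT3 was much lower, at 0.949 ± 0.676 FPKM (SD, n = 29), and ranged from 0.3004 FPKM in LLO replicate 1 to 3.34 FPKM in LLO replicate 2. It passed 0.5 FPKM in 21 of the 29 samples, and unlike CNOT2 it was not higher in the samples numbered 1 and 5.

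CNOT7 (ENSCHIG00000011886) and CNOT8 (ENSCHIG00000016161) are alternative deadenylases of the DEDD nuclease class, and both are docking sites for BTG4. In oocytes of large follicles, CNOT7 was at 14.2, 1.38, 2.88, 1.95 and 18.7 FPKM in HLO replicates 1 to 5 (mean 7.81 ± 8.04 SD, n = 5), and at 12.9, 5.71, 2.94, 15.3 and 30.3 FPKM in LLO replicates 1 to 5 (mean 13.4 ± 10.7 SD, n = 5). CNOT7 in oocytes of medium follicles was at 16.3, 4.47, 2.15, 3.03 and 14.9 FPKM in HMO replicates 1 to 5 (mean 8.17 ± 6.85 SD, n = 5), against 6.13, 1.78, 2.12, 12.6 and 13.5 FPKM in LMO replicates 1 to 5 (mean 7.22 ± 5.58 SD, n = 5). In oocytes of small follicles, CNOT7 was at 10.6, 2.21, 5.84 and 13.4 FPKM in HSO replicates 1, 3, 4 and 5 (mean 7.99 ± 4.95 SD, n = 4), and at 8.99, 2.75, 2.61, 16.3 and 13.4 FPKM in LSO replicates 1 to 5 (mean 8.81 ± 6.17 SD, n = 5). As for CNOT2, the samples with high CNOT7 were spread over all groups. The lowest of the 12 samples numbered 1 or 5 was at 6.13 FPKM and the highest of the 11 numbered 2 or 3 at 5.71 FPKM, so these sets did not overlap.

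In oocytes of large follicles, CNOT8 was at 14.6, 1.78, 2.93, 1.53 and 9.90 FPKM in HLO replicates 1 to 5 (mean 6.14 ± 5.83 SD, n = 5), and at 14.7, 0.388, 1.23, 12.7 and 11.3 FPKM in LLO replicates 1 to 5 (mean 8.08 ± 6.75 SD, n = 5). CNOT8 in oocytes of medium follicles was at 12.9, 2.90, 1.11, 2.75 and 13.8 FPKM in HMO replicates 1 to 5 (mean 6.69 ± 6.12 SD, n = 5), against 7.37, 0.915, 1.82, 9.08 and 13.5 FPKM in LMO replicates 1 to 5 (mean 6.54 ± 5.24 SD, n = 5). In oocytes of small follicles, CNOT8 was at 9.07, 2.34, 4.51 and 23.6 FPKM in HSO replicates 1, 3, 4 and 5 (mean 9.88 ± 9.56 SD, n = 4), and at 3.34, 2.01, 1.99, 11.5 and 13.6 FPKM in LSO replicates 1 to 5 (mean 6.50 ± 5.62 SD, n = 5). CNOT8 had the widest relative range of the 10 members, 60.9-fold from LLO replicate 2 to HSO replicate 5, and was above 0.5 FPKM in 28 of 29 samples. Without LLO replicate 2 the range was 25.8-fold, from LMO replicate 2, and still the widest. Its samples numbered 1 or 5 (lowest 3.34 FPKM) were again all above those numbered 2 or 3 (highest 2.93 FPKM). CNOT7 made up 57.0 ± 11.2% (SD, n = 29) of the summed FPKM of CNOT7 and CNOT8, with more than 50% in 20 of 29 samples. The share of CNOT7 was lowest in HSO replicate 5 (36.2%) and highest in LLO replicate 2 (93.6%), the sample with the lowest CNOT8. Means by group ran from 48.7 ± 8.98% in HSO (n = 4) to 67.6 ± 18.2% in LLO (n = 5). Without LLO replicates 2 and 5 the mean was 57.3 ± 12.1% in LLO (n = 3) and 55.1 ± 8.32% over all samples (n = 27).

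CNOT6 (ENSCHIG00000019100) and CNOT6L (ENSCHIG00000006297) are the alternative deadenylases of the other nuclease class in the complex, the EEP family, and in mouse oocytes CNOT6L acts in the clearance of maternal mRNA. In oocytes of large follicles, CNOT6L was at 4.84, 3.32, 3.53, 6.85 and 7.36 FPKM in HLO replicates 1 to 5 (mean 5.18 ± 1.86 SD, n = 5), and at 4.08, 18.0, 6.43, 11.3 and 14.1 FPKM in LLO replicates 1 to 5 (mean 10.8 ± 5.64 SD, n = 5). CNOT6L in oocytes of medium follicles was at 3.38, 4.38, 6.64, 3.96 and 6.72 FPKM in HMO replicates 1 to 5 (mean 5.02 ± 1.56 SD, n = 5), against 3.22, 11.9, 5.33, 8.64 and 6.93 FPKM in LMO replicates 1 to 5 (mean 7.20 ± 3.29 SD, n = 5). In oocytes of small follicles, CNOT6L was at 3.68, 5.22, 6.91 and 3.31 FPKM in HSO replicates 1, 3, 4 and 5 (mean 4.78 ± 1.64 SD, n = 4), and at 11.4, 5.97, 7.20, 7.45 and 6.21 FPKM in LSO replicates 1 to 5 (mean 7.64 ± 2.19 SD, n = 5). In each follicle class CNOT6L was lower in the high-fertility samples, and all 14 of these lay under the median of the low-fertility group from the same follicle class (11.3 FPKM in LLO, 6.93 FPKM in LMO and 7.20 FPKM in LSO). For large follicles this rested on LLO replicates 2 and 5. Without them the middle LLO sample was replicate 3, at 6.43 FPKM, and HLO replicates 4 and 5 lay above it. The groups still overlapped in each class: LLO replicates 1 and 3, LMO replicates 1 and 3 and LSO replicates 2 and 5 were under the highest high-fertility sample of their class. LSO replicate 1 lay far above the rest of its group. CNOT6 was at 0.997 ± 0.553 FPKM (SD, n = 29), from 0.283 FPKM in HLO replicate 2 to 2.26 FPKM in LLO replicate 4, and above 0.5 FPKM in 24 samples. By mRNA level CNOT6L was the main form, with 87.2 ± 4.16% (SD, n = 29) of the summed FPKM of CNOT6 and CNOT6L. This share was above 50% in 29 of 29 samples, lowest in HLO replicate 1 (77.2%) and highest in LSO replicate 1 (93.3%).

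CNOT10 (ENSCHIG00000008987) and CNOT11 (ENSCHIG00000026686) form a module that binds the N-terminal portion of CNOT1. CNOT10 averaged 14.9 ± 8.05 FPKM (SD, n = 29) and ranged from 7.45 FPKM in HMO replicate 2 to 41.4 FPKM in LLO replicate 4. Group means ± SD of CNOT10 were 12.1 ± 4.87 in HLO, 18.8 ± 13.3 in LLO, 14.2 ± 5.14 in HMO, 11.9 ± 3.80 in LMO, 11.2 ± 1.29 in HSO and 20.7 ± 10.7 in LSO, in FPKM. CNOT11 averaged 8.94 ± 3.86 FPKM (SD, n = 29), from 3.01 FPKM in LLO replicate 2 to 21.3 FPKM in LLO replicate 4, with group means between 7.53 ± 1.64 FPKM in HMO and 10.2 ± 3.61 FPKM in LSO. Both genes were highest in LLO replicate 4, the sample with the most genes above 0.5 FPKM, and for CNOT11 the other 4 LLO samples were at 3.01 to 7.53 FPKM.

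CNOT7, CNOT8 and CNOT2 varied with BTG4 across samples, as did many other genes (7.26% of all had a rho above 0.8). Over the 29 samples, in log2(FPKM + 1), Spearman's rho to BTG4 was 0.87 for CNOT7 (Pearson's r 0.84), 0.83 for CNOT2 (r 0.83) and 0.78 for CNOT8 (r 0.80), where the median rho to BTG4 over 9691 other genes was 0.34. These values were at the 97.7th, 95.8th and 90.2nd percentile of all genes. CNOT10 (0.49), CNOT1 (0.44), CNOT11 (0.39) and CNOT6 (0.31) were nearer to that median. CNOT6L (−0.11) and CNOT3 (−0.39) were below it. The points share the FPKM scaling of their library and their replicate number, and these values are descriptions. Without the 2 samples whose BTG4 was farthest from the median, LMO replicate 2 and HLO replicate 4, rho was 0.84 for CNOT7, 0.81 for CNOT2 and 0.75 for CNOT8. Without LLO replicates 2 and 5 it was 0.85, 0.81 and 0.84 in the same order, with CNOT1 at 0.65 and CNOT6L at −0.27.

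With the samples rescaled by median-of-ratios factors, rho to BTG4 was 0.76 for CNOT7, 0.74 for CNOT2 and 0.68 for CNOT8, against a median of 0.02 over all genes. That of CNOT10 turned to −0.10, that of CNOT11 to −0.46 and that of CNOT6 to −0.06, while CNOT6L was at −0.50 and CNOT1 at 0.07. With each value centred on the mean of its replicate number, rho was 0.76 for CNOT7, 0.74 for CNOT2 and 0.44 for CNOT8, against a median of 0.10. That of CNOT1 then turned to −0.07 and that of CNOT11 to −0.08. CNOT10 was at 0.10, CNOT6 at 0.22, CNOT6L at −0.02 and CNOT3 at −0.07. Within the 6 samples of a replicate number, rho between CNOT7 and BTG4 was 0.77 for number 1, 0.20 for number 3, 0.94 for number 4 and 0.60 for number 5. CNOT2 gave 0.43, −0.03, 0.94 and 0.83 for the same numbers, and CNOT8 gave 0.49, 0.43, 0.89 and −0.37. Among the 4 numbers with 6 samples, the relation was thus weak or absent within number 3 for CNOT7 and CNOT2, and turned within number 5 for CNOT8. The 5 samples of number 2 are too few for such a value, so the relation is not described there.

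**Figure D2:**
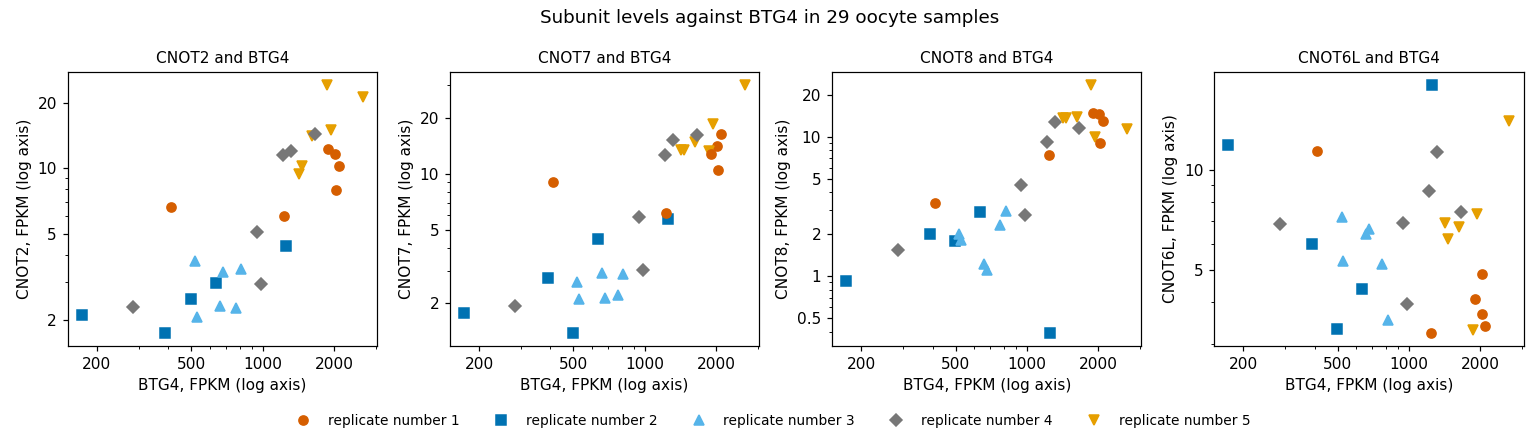
Levels of CNOT2, CNOT7, CNOT8 and CNOT6L against BTG4 in 29 oocyte samples, in FPKM on log axes, with each point 1 sample marked by its replicate number. CNOT7 (rho 0.87), CNOT2 (0.83) and CNOT8 (0.78) are high where BTG4 is high, and CNOT6L (rho −0.11) is not.

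Among the subunits themselves, CNOT2 and CNOT7 (rho 0.90), CNOT2 and CNOT8 (0.84), CNOT7 and CNOT8 (0.83) and CNOT1 and CNOT11 (0.82) had the highest values, and CNOT6 and CNOT6L had a rho of 0.75. The 10 members form 45 pairs, of which 6 had a rho above 0.8 and 10 a negative rho, with a median of 0.45. In percent these were 13.3% and 22.2%, where over all pairs of the 9692 genes 2.06% had a rho above 0.8 and 36.1% a negative one, with a median of 0.15. Leaving out LLO replicates 2 and 5 gave 10 pairs above 0.8 and 9 negative, with a median of 0.52, beside 3.01%, 35.9% and 0.16 over all genes. These counts depended on the scaling. With median-of-ratios factors 3 pairs were above 0.8, those among CNOT2, CNOT7 and CNOT8, and 22 were negative, with a median of 0.01, beside 0.757%, 49.5% and 0.00. Centred on replicate number, 0 pairs were above 0.8 and 13 negative, with a median of 0.27, beside 0.338%, 40.4% and 0.08. CNOT2 and CNOT7 had a rho of 0.91 with the factors and 0.78 centred, CNOT2 and CNOT8 of 0.82 and 0.61, and CNOT7 and CNOT8 of 0.81 and 0.49. CNOT1 and CNOT11 had 0.35 and 0.73, and CNOT6 and CNOT6L 0.63 and 0.74. Replicate number held 74.1% of the sum of squares of CNOT8, 71.3% of CNOT2 and 70.9% of CNOT7, at the 98.1st, 96.5th and 96.1st percentile of all genes. It held 45.3% for CNOT1, 41.9% for CNOT3, 28.5% for CNOT11, 23.5% for CNOT10, 19.0% for CNOT6 and 14.9% for CNOT6L. In 3 of the 10 members, CNOT2, CNOT7 and CNOT8, the samples numbered 1 and 5 did not overlap with those numbered 2 and 3, as was so for 5.22% of the 9692 genes. These numbers were chosen after the values were seen, and no test was made.

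Some other measures of the samples moved with these members and some did not. The first principal component of all genes had a rho of −0.93 with CNOT8, −0.91 with CNOT2, −0.87 with CNOT7 and −0.83 with BTG4, so these members lay along the main axis of variation among the samples. The count of genes above 0.5 FPKM had a rho of 0.84 with CNOT8, 0.79 with CNOT2, 0.77 with CNOT7 and 0.58 with BTG4 over the 29 samples. Its median was 8268.5 for number 1 and 8279 for number 5 against 7421 for number 2 and 7239 for number 3. The median-of-ratios factors, from 0.690 in HLO replicate 2 to 1.48 in LLO replicate 4, had a rho of 0.88 with CNOT7 and 0.87 with CNOT2. The summed level of the oocyte markers had a rho of 0.90 with CNOT11, 0.85 with CNOT1, 0.74 with CNOT8, 0.70 with CNOT2, 0.65 with CNOT7 and 0.43 with BTG4. Its median was 2831 FPKM for number 1, 1598 for number 2, 1155 for number 3, 2772 for number 4 and 3690.1 for number 5. The summed level of the theca and stroma markers had a rho of 0.87 with BTG4, 0.80 with CNOT7 and 0.79 with both CNOT2 and CNOT8. Of the 6 markers on that list 4 were in the table, COL1A1 was listed at 0 in 27 samples and PDGFRA in 25, and DCN or ACTA2 was the most abundant in each sample. Their sum was 17.5, 5.72, 7.05, 5.65 and 34.8 FPKM in HLO replicates 1 to 5, 19.6, 8.86, 5.55, 5.63 and 16.4 FPKM in HMO replicates 1 to 5, and 22.0, 4.67, 10.7 and 29.9 FPKM in HSO replicates 1, 3, 4 and 5. It was 30.8, 6.74, 6.51, 9.05 and 42.6 FPKM in LLO, 17.6, 3.16, 5.63, 16.3 and 19.8 FPKM in LMO and 4.37, 5.78, 4.07, 15.6 and 20.2 FPKM in LSO, replicates 1 to 5 of each. The sum was at most 8.86 FPKM in the samples numbered 2 and 3, and in those numbered 1 it was low in LSO replicate 1, as BTG4 was. Over the 27 samples other than LLO replicates 2 and 5, the rho of this sum was 0.85 with BTG4, 0.77 with CNOT7, 0.76 with CNOT2 and 0.83 with CNOT8, and that of the oocyte sum was 0.56, 0.79, 0.83 and 0.76 in the same order. For BTG4, CNOT7, CNOT2 and CNOT8 in this order, the rho over 29 samples was −0.14, −0.13, −0.10 and 0.08 with the summed granulosa and cumulus markers and −0.32, −0.30, −0.31 and −0.17 with the leukocyte markers. It was 0.51, 0.36, 0.31 and 0.55 with the endothelium markers and 0.39, 0.13, 0.18 and 0.29 with the sum of all FPKM. The part of these measures in the variation of BTG4 and the subunits was not tested.

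Likeness to BTG4 over the 29 samples was ranked among genes outside the members that had a symbol with a single identifier. The 5 most alike of these began with PCNA, the sliding clamp of DNA replication (rho 0.97, mean 1973 ± 1437 FPKM). PSMA5, a proteasome subunit (0.96, 311 ± 144 FPKM), and SETD9 (0.96, 8.83 ± 5.14 FPKM) came next. They were followed by NGDN (0.95, 63.0 ± 42.8 FPKM) and CSTF1, a subunit of the cleavage stimulation factor of mRNA 3′ end formation (0.95, 14.3 ± 11.6 FPKM), with SD over 29 samples. Centred on replicate number, the rho of these 5 genes to BTG4 was between 0.75 (CSTF1) and 0.90 (NGDN). In the same ranking the 2 least alike were GAK, a kinase of clathrin uncoating (rho −0.93, mean 1.63 ± 2.65 FPKM), and BANP (−0.92, 34.8 ± 35.9 FPKM).

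High-fertility and low-fertility oocytes were compared within each follicle class and over all classes, to ask whether the genes of maternal mRNA deadenylation differ between the populations. None of the 10 members passed an adjusted p of 0.05 in limma in any of these comparisons. At an unadjusted p under 0.05 there were 0 members in HLO against LLO, 0 in HMO against LMO, 0 in HSO against LSO, and 1, CNOT6L, over all classes. Leaving out LLO replicates 2 and 5 gave the same counts. In HLO against LLO, 0% of 8328 genes passed the adjusted limit, 2.98% were higher and 1.16% lower in HLO at an unadjusted p under 0.05, and 0.432% had groups that did not overlap. In HMO against LMO, 0.0715% of 8390 genes (6 genes) passed the adjusted limit, 5.09% were higher and 3.58% lower at the unadjusted limit, and 1.7% did not overlap. In HSO against LSO these shares were 0.0119% of 8376 genes (1 gene), 2.04%, 2.36% and 2.05%. Over all classes, with follicle class in the model, 0.0103% of 9692 genes (1 gene) passed the adjusted limit, 3.39% were higher and 6.59% lower at the unadjusted limit. No member had groups that did not overlap in any of the 3 follicle classes.

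By unadjusted p in limma, CNOT6L was the member nearest to a difference in large follicles, in small follicles and over all classes. In medium follicles CNOT11 was (unadjusted p of 0.249). CNOT6L was lower in high fertility in each comparison. Its log2 fold change, high over low, was −0.83 (SE 0.448, 95% interval −1.79 to 0.13) in large, −0.39 (SE 0.342, 95% interval −1.13 to 0.35) in medium and −0.59 (SE 0.312, 95% interval −1.28 to 0.10) in small follicles. Over all classes it was −0.60 (SE 0.198, 95% interval −1.01 to −0.20), with an unadjusted p of 0.00489 and an adjusted p = 0.423 in limma, so it did not pass the correction. Leaving out LLO replicates 2 and 5, which had the 2 highest levels of CNOT6L among the 29 samples, gave −0.38 (unadjusted p of 0.401) in large follicles and −0.45 (unadjusted p of 0.0210) over all classes. Without LLO replicate 1 the unadjusted p in large follicles was 0.0269, at a log2 fold change of −1.10. In that fit 8.35% of all genes were under the unadjusted limit, beside 4.14% with all samples. The CNOT6L levels ran against the sum of all FPKM, with a rho of −0.64 over the 29 samples, and the part of that sum in the difference was not tested. With median-of-ratios factors the log2 fold change over all classes was −0.50 (unadjusted p of 0.0233), where 10.5% of all genes were under that limit.

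**Figure D3:**
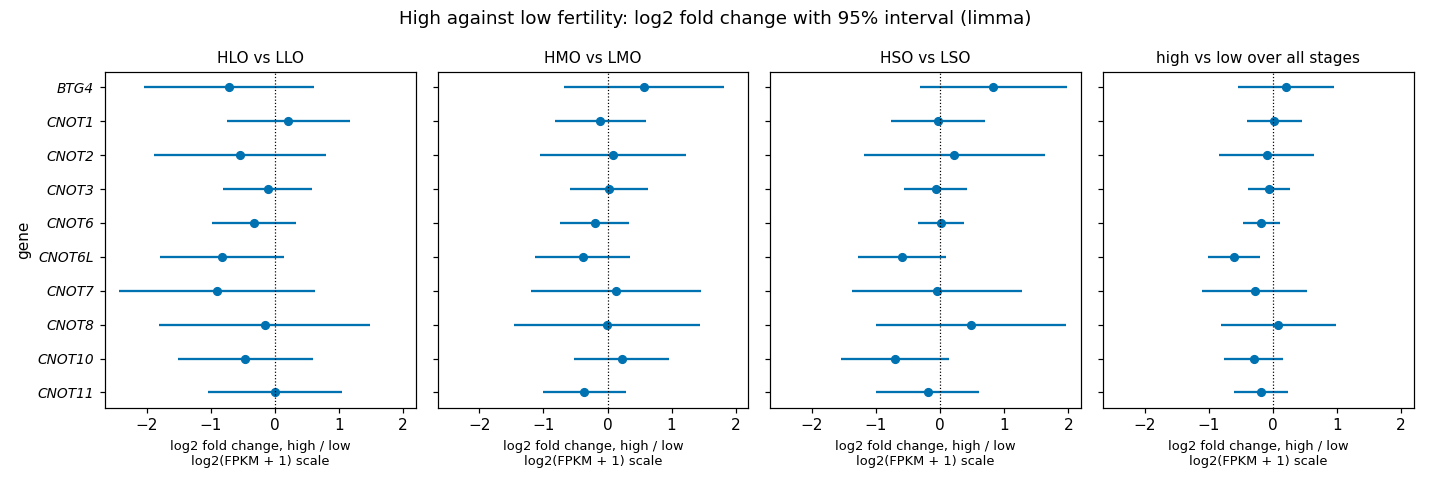
Log2 fold change of each member, high over low fertility, with its 95% interval from limma, in large, medium and small follicles and over all classes. The interval of CNOT6L over all classes, −1.01 to −0.20, leaves out 0, and every other interval includes it.

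BTG4 had a log2 fold change of −0.72 (SE 0.619, 95% interval −2.05 to 0.62) in large follicles, where it was lower in the high-fertility mean, of 0.58 (SE 0.577, 95% interval −0.67 to 1.82) in medium and of 0.83 (SE 0.521, 95% interval −0.32 to 1.98) in small follicles, where it was higher. Over all classes the log2 fold change of BTG4 was 0.21 (SE 0.366, 95% interval −0.54 to 0.95). Without LLO replicates 2 and 5 the value was −0.47 in large follicles and 0.36 over all classes. Fits without 1 sample at a time gave −1.03 to −0.32 in large, 0.06 to 0.82 in medium and 0.60 to 1.13 in small follicles. Over all classes they gave 0.03 to 0.37. The 0.06 was without LMO replicate 2, the sample with the lowest BTG4, so most of the difference in medium follicles rested on 1 sample. In small follicles all 4 HSO samples were above the LSO median of 519.6 FPKM. Without LSO replicate 4 the difference in small follicles had an unadjusted p of 0.0459 at a log2 fold change of 1.13. In that fit 3.82% of all genes were under the unadjusted limit. With samples weighted by their quality in limma, the value in medium follicles turned to −0.28. The interaction of follicle class and population, which tests whether the difference varies with class, gave an unadjusted p of 0.181 for BTG4, the smallest of the members, and an adjusted p = 0.813 in limma, so a difference between classes was not shown. Without LLO replicates 2 and 5 that unadjusted p was 0.372.

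For the remaining members, log2 fold changes within a class were between −0.90 (CNOT7 in large follicles, SE 0.710) and 0.48 (CNOT8 in small follicles, SE 0.674). The next nearest to the limit was CNOT10 in small follicles, at −0.71 (SE 0.383, 95% interval −1.55 to 0.14), with levels of 9.69 to 12.8 FPKM in HSO and 9.94 to 37.9 FPKM in LSO. Without LSO replicate 2 its log2 fold change was −0.92 (unadjusted p of 0.0295), where 6.66% of all genes were under the unadjusted limit. A block for replicate number, in which that sample has no HSO partner, gave the same value (unadjusted p of 0.0222 and adjusted p = 0.497 in limma), where 9.41% of all genes were under the unadjusted limit. The median log2 fold change of the 10 members was −0.39 in large, 0.00 in medium and −0.04 in small follicles and −0.14 over all classes, beside −0.09, −0.07, −0.01 and −0.04 over all genes tested. With median-of-ratios factors the medians of the members were −0.24, 0.08, −0.02 and −0.05, and the median of all genes in large follicles moved from −0.09 to 0.05. That scaling also moved the share of genes at the unadjusted limit that were higher in high fertility, from 58.7% (427 of 727) to 75.2% (613 of 815) in medium follicles and from 34.0% (329 of 968) to 59.9% (604 of 1009) over all classes.

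Weighting the samples by quality moved several members toward lower values in high fertility in large and medium follicles and over all classes, and there most genes at the unadjusted limit were lower too. Over all classes 6 members were then under that limit and all were lower in high fertility, CNOT7 (−0.84), CNOT8 (−0.79), CNOT2 (−0.63), CNOT11 (−0.43), CNOT6L (−0.40) and CNOT10 (−0.38), with adjusted p from 0.0713 to 0.127 in limma. Of all 9692 genes, 5.1% were higher and 28.7% lower at the same limit with these weights. In medium follicles CNOT7 went from 0.13 to −1.03, CNOT8 from −0.01 to −1.21, CNOT11 to −0.73 and CNOT1 to −0.55, these 4 under the unadjusted limit, and CNOT2 from 0.08 to −0.81 (unadjusted p of 0.0601). There 7.89% of genes were higher and 31.9% lower. In large follicles CNOT7 was at −1.65 (unadjusted p of 0.0222, adjusted p = 0.299 in limma) and CNOT6L at −0.96 (unadjusted p of 0.0396), beside 4.95% of genes higher and 11.5% lower. No member passed an adjusted p of 0.05 with the weights, and why they moved so many genes was not tested.

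Follicle class was tested over the 29 samples with population in the model, to ask whether levels differ between large, medium and small follicles. In limma 0 of the 10 members passed an adjusted p of 0.05, and 0 an unadjusted p of 0.05, beside 0% and 1.66% of 9692 genes. The smallest unadjusted p was that of CNOT1 (0.109), whose mean was below 3 FPKM in HLO and LLO and above it in the other 4 groups. For CNOT1 the unadjusted p was 0.0280 with median-of-ratios factors, 0.0497 without HLO replicate 1, 0.0188 without LLO replicate 4 and 0.491 without LLO replicates 2 and 5. In the same order 1.54%, 2.41%, 5.1% and 0.593% of all genes were under the unadjusted limit. In the interaction, too, 0 members passed either limit, beside 0% and 7.89% of 9692 genes.

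Further genes of deadenylation and mRNA decay were read from 7 lists that hold 56 genes with a single identifier, of which 41 entered the fits over all samples. In limma 0 of them passed an adjusted p of 0.05 in any comparison. At the unadjusted limit, 0 were higher and 1 lower in high fertility in large follicles (of 38 tested), 3 higher and 1 lower in medium follicles (of 40), 0 higher and 1 lower in small follicles (of 38). There were 1 higher and 4 lower over all classes (of 41), and 0 in the tests of follicle class and of the interaction. Over all genes tested the same limit held for 2.98% higher and 1.16% lower in large, 5.09% and 3.58% in medium and 2.04% and 2.36% in small follicles. Over all classes it held for 3.39% higher and 6.59% lower.

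Among other subunits and partners of CCR4-NOT, the ubiquitin ligase CNOT4 was the highest at 25.0 ± 8.07 FPKM (SD, n = 29). The helicase HELZ was at 0.953 ± 0.402 FPKM in HMO (n = 5) and 2.33 ± 1.53 FPKM in LMO (n = 5). For HELZ, the log2 fold change was −0.67 (SE 0.305, adjusted p = 0.571 in limma), with 5 of 5 HMO samples under the LMO median. The BTG and TOB family, relatives of BTG4, gave no gene at the unadjusted limit within a class. BTG2 was the highest at 40.7 ± 59.0 FPKM, far under BTG4. The median of BTG2 was 22.5 FPKM, and its highest value, 315.5 FPKM, was in LLO replicate 2. Of the RNA-binding proteins that recruit the complex, ZFP36L1 was the highest at 63.6 ± 21.7 FPKM. TNRC6B, a partner of Argonaute in microRNA silencing, was at 1.15 ± 0.5001 FPKM in HLO (n = 5) and 2.97 ± 1.69 FPKM in LLO (n = 5). For TNRC6B, the log2 fold change was −0.80 (SE 0.354, adjusted p = 0.828 in limma), with 5 of 5 HLO samples under the LLO median. With LLO replicates 2 and 5 left out, the log2 fold change of TNRC6B was −0.60 (unadjusted p of 0.159). Of the other deadenylases, PNLDC1 was the highest at 24.4 ± 21.2 FPKM. PDE12, a deadenylase of mitochondria, was at 0.531 ± 0.212 FPKM in HSO (n = 4) and 1.67 ± 1.12 FPKM in LSO (n = 5). For PDE12, the log2 fold change was −0.73 (SE 0.270, adjusted p = 0.880 in limma), with 4 of 4 HSO samples under the LSO median. The highest HSO sample (0.774 FPKM) was under the lowest LSO sample (0.904 FPKM). In this comparison 2 of the 38 list genes tested had groups that did not overlap, beside 2.05% of all genes.

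In 3′ uridylation and decay, the cytoplasmic poly(A) polymerase TENT2 was the highest at 10.8 ± 4.97 FPKM. The exonuclease DIS3L2, which degrades uridylated RNA, was at 1.17 ± 0.559 FPKM in HMO (n = 5) and 0.491 ± 0.340 FPKM in LMO (n = 5). For DIS3L2, the log2 fold change was 0.53 (SE 0.240, adjusted p = 0.571 in limma), with 4 of 5 HMO samples above the LMO median. In decapping and 5′ decay, LSM7, a protein of the LSM ring and the highest of its list at 1542 ± 737 FPKM, was at 2133 ± 903 FPKM in HMO (n = 5) and 1052 ± 465 FPKM in LMO (n = 5). For LSM7, the log2 fold change was 1.01 (SE 0.378, adjusted p = 0.459 in limma), with 5 of 5 HMO samples above the LMO median. LSM1, of the same ring, was at 49.8 ± 34.1 FPKM in HMO (n = 5) and 19.9 ± 15.3 FPKM in LMO (n = 5). For LSM1, the log2 fold change was 1.44 (SE 0.645, adjusted p = 0.565 in limma), with 4 of 5 HMO samples above the LMO median. With samples weighted by quality, HELZ (adjusted p = 0.0451) and LSM7 (adjusted p = 0.0158) passed the limit in limma in medium follicles, and with a block for replicate number LSM1 (adjusted p = 0.0421) did. Under these settings 12.1% (1011 genes) and 1.51% (127 genes) of all 8390 genes tested passed, against 0.0715% without them. Over the 17 alternatives the adjusted p of each of these genes ran up to 0.957. HELZ was under the unadjusted limit in 7 of the 17, LSM7 in 15 and LSM1 in 8 (log2 fold change 0.58 to 1.78). DIS3L2 was under it in 6 (log2 fold change 0.39 to 1.22). Of the poly(A)-binding proteins PABPN1 was the highest at 38.7 ± 16.1 FPKM. Over all classes HELZ (log2 fold change −0.56, SE 0.167), PABPC1 (−0.47, SE 0.190), PDE12 (−0.42, SE 0.168) and CNOT4 (−0.37, SE 0.177) were lower and LSM4 (0.74, SE 0.325) higher in high fertility at the unadjusted limit, with adjusted p from 0.423 to 0.491 in limma. Without LLO replicates 2 and 5 HELZ (−0.42) and PABPC1 (−0.45) were still under that limit, and PDE12 (−0.34, unadjusted p of 0.0519), CNOT4 (−0.27, unadjusted p of 0.123) and LSM4 (0.66, unadjusted p of 0.0711) were not.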

How the data were processed

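The values are the FPKM deposited by the authors, computed with Cufflinks and Ensembl gene annotation from uniquely matched reads after removal of duplicates with Picard. The aligner and genome build are not given in the sources used here. The table held 1 further column of values, named as HSO replicate 2, which matched no sample in the labels and was not used here. Values were analysed as log2(FPKM + 1), on genes above 0.5 FPKM in at least 4 samples of a fit, with limma 3.58.1 in R 4.3.3 (moderated test with a trend, 2-sided), and p-values were adjusted over all genes tested by Benjamini-Hochberg. Follicle class or population was a covariate in the fits over all samples. Descriptions used Python 3.11.15. The code was tested on simulated data.

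The members and gene lists were chosen with earlier results of these data known. Genes named outside the members were the 5 most and 2 least like BTG4 by Spearman's rho, among genes having a symbol with a single identifier. Of each list, the highest by mean and those with an unadjusted p under 0.05 within a follicle class were also named. The genes given over all classes were added after their values were seen. PUM2, LSM5, LSM6 and PABPC4 have several identifiers each and were left out. Alternatives were another pseudocount, other filters, median-of-ratios factors, sample weights, a block for replicate number, 1 fit over all samples, and leaving out each sample. Leaving out LLO replicates 2 and 5 together, and rescaling or centring the levels, was chosen after seeing the data.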

Additional observations from a re-analysis of the deposited data

Results flagged for a closer look

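In 60 groups of 4 or 5 samples (10 members in 6 groups), 2 samples lay far from the others of their group by Dixon's criterion, which chance gives in about 1 in 20 groups. CNOT6L was at 11.39 FPKM in LSO replicate 1, where the next LSO sample was at 7.452 FPKM. CNOT11 was at 21.32 FPKM in LLO replicate 4, where the next LLO sample was at 7.533 FPKM.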

How the results depend on the processing

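The count of genes at an adjusted p under 0.05 depended on the setting, and the cause was not tested. In HLO against LLO (0 genes in limma, with 345 at an unadjusted p under 0.05) it was 2 with sample weights and 1 with a block for replicate number, and 0 to 1 when each sample was left out in turn. In HMO against LMO (6 genes) it was 0 with no filter, 10 with median-of-ratios factors, 1011 with sample weights, 127 with the block and 3 with 1 fit over all samples. Leaving out each sample gave 0 to 160, the highest without HMO replicate 2. In HSO against LSO (1 gene) it was 2 with a pseudocount of 0.1, 0 with the block, 0 with 1 fit, and 0 to 2 when each sample was left out. Over all classes (1 gene) it was 0 with no filter, 0 with median-of-ratios factors, 691 with sample weights, 0 without LLO replicates 2 and 5, and 0 to 2 when each sample was left out. For the interaction (0 genes) it was 1 with median-of-ratios factors, 231 with sample weights, 70 with the block and 0 to 59 when each sample was left out.

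The count of members at an unadjusted p under 0.05 was 2 with sample weights, 1 with 1 fit and 0 to 1 with each sample left out in HLO against LLO (0), 4 with sample weights in HMO against LMO (0), 1 with the block and 0 to 1 with each sample left out in HSO against LSO (0), and 6 with sample weights over all classes (1). In the test of follicle class (0) it was 1 with median-of-ratios factors, 1 with sample weights and 0 to 1 with each sample left out. Over all genes, sample weights put 16.5% in HLO against LLO, 39.8% in HMO against LMO, 33.8% over all classes and 8.43% in the test of follicle class under the same unadjusted limit, 1 fit 11.4% in HLO against LLO, and the block 9.41% in HSO against LSO. In the test of follicle class, median-of-ratios factors put 1.54% of all genes under it. Dropping HLO replicate 1 put 2.41% there and dropping LLO replicate 4 put 5.1%, with CNOT1 the member in these fits. In HLO against LLO, dropping LLO replicate 1 put CNOT6L and 8.35% of all genes under it. In HSO against LSO, dropping LSO replicate 2 did so for CNOT10 (6.66% of all genes) and dropping LSO replicate 4 for BTG4 (3.82%). No member passed an adjusted p of 0.05 under any alternative. CNOT6L over all classes kept its direction and its unadjusted p under 0.05 in all 36 alternatives, with log2 fold changes of −0.68 to −0.40 and adjusted p from 0.0988 to 0.707. Of these alternatives, 29 left out 1 sample each and so shared most of their data. CNOT6L had the smallest p of the 10 members there, and 9.99% of all genes were under the unadjusted limit in the main fit. With sample weights the log2 fold change of BTG4 turned to −0.28 both in HMO against LMO (from 0.58) and over all classes (from 0.21). In HMO against LMO, CNOT7 turned from 0.13 to −1.03 and CNOT2 from 0.08 to −0.81, and CNOT8 went from −0.01 to −1.21. Over all classes CNOT8 turned from 0.09 to −0.79. The cause was not tested. The member under the unadjusted limit with the block in HSO against LSO was CNOT10 (−0.92). BTG4 in HMO against LMO ran from 0.06 to 0.82 with each sample left out, the lowest without LMO replicate 2. Samples of the same replicate number in 2 groups had correlations from −0.48 to 0.71, above 0.1 in 10 of 14 pairs and the best match in 7, and were not treated as pairs. The FPKM table gives no depth, and depth from other sources was not used here, so small differences in the low CNOT3 and CNOT6 were not judged against counting error.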
